A study of Mus musculus with 2 samples.

Results

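The genes described here are 8 members of the monocyte-recruiting chemokine system, 5 ligands (Ccl2, Ccl7, Ccl12, Ccl6 and Ccl9) and 3 receptors (Ccr2, Ccr1 and Cx3cr1), chosen by gene symbol from the 28692 genes of the deposited matrices. Chemokines are small secreted proteins that guide leukocytes along gradients by binding receptors coupled to G proteins. Ccl2, Ccl7 and Ccl12 are ligands of Ccr2, the receptor by which classical monocytes leave the bone marrow and enter tissue, and in adipose tissue the Ccl2 and Ccr2 axis is known for macrophage accumulation in obesity. Ccl6 and Ccl9 are ligands of Ccr1, which also binds Ccl7, and Cx3cr1 is the receptor of the membrane-bound chemokine fractalkine and a marker of patrolling monocytes and many tissue macrophages.

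The cells were leukocytes (CD45+) from the adipose tissue of wild-type (wt) C57BL/6 mice, 1 library from mice on chow, which the treatment label calls control, and 1 library from mice on a ketogenic diet (KD), a high-fat diet very low in carbohydrate. Feeding lasted 1 week, and blood leukocytes had been told apart from resident ones by an intravenous label. The titles call both groups adult, without an age in weeks. The number and sex of the mice behind each library are not given in the labels, and each diet had 1 library, so no difference between diets below has a replicate check or a test. Intervals in brackets are exact 95% intervals (Poisson for a level, conditional binomial for a ratio, Clopper-Pearson for a share) and cover counting error only.

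The chow library held 4545 cells with a median of 3469 unique molecular identifiers (UMIs, each a captured transcript molecule) and the KD library 5614 cells with a median of 3461.5. The authors' clustering placed 4458 chow and 5559 KD cells in 13 clusters. Ptprc, the gene of CD45, had a UMI in 82.6% [81.5–83.7] of clustered chow cells and 82.3% [81.3–83.3] of clustered KD cells, and summed stromal markers stood at 7.96 and 5.88 CPM (UMIs of a gene scaled to a common total of all UMIs). The libraries shared 41 cell barcodes. Cluster 3 was macrophage-like, with 8 of 12 macrophage markers and 6 of 8 classical monocyte markers raised in it, and it held 859 chow cells (19.3%) but 145 KD cells (2.61%). Its median depth was 5543 UMIs per cell under chow and 5589 under KD. Cluster 8, led by Retnla, Fcrls, Lyz1 and Ear2, reached no name, with 2 of 12 macrophage and 2 of 8 monocyte markers raised, and held 362 chow and 47 KD cells. Because the clusters were made from these cells, with Ccl2 and Ccl7 among the 10 leading genes of cluster 3, the levels of a gene across clusters are given as a description.

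All 5 ligand genes lie on chromosome 11 and all 3 receptor genes on chromosome 9 (GRCm38, GENCODE M21). Ccl2 (ENSMUSG00000035385, chr11:82035571-82037453) and Ccl7 (ENSMUSG00000035373, chr11:82045712-82047525) are neighbours on the plus strand, 8258 bases apart. Ccl12 (ENSMUSG00000035352, chr11:82101845-82103400, plus strand) starts 54319 bases beyond the end of Ccl7. Ccl9 (ENSMUSG00000019122, chr11:83572919-83578636) and Ccl6 (ENSMUSG00000018927, chr11:83587882-83593087) form a second pair on the minus strand, 9245 bases apart. Ccr1 (ENSMUSG00000025804, chr9:123962124-123968692, minus strand) and Ccr2 (ENSMUSG00000049103, chr9:124101950-124113557, plus strand) lie 133257 bases apart, and Cx3cr1 (ENSMUSG00000052336) spans chr9:119901616-120069879 on the minus strand.

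The 250 bases before the annotated start of 3 ligand genes are shown, 5′ to 3′ on the strand of each gene, from RefSeq on GRCm38.p6. Ccl12 is shown because its level within cluster 3 was higher in the KD library while those of Ccl2 and Ccl7 on the same strand of the region were lower, and its capitals mark a TATA box core (TATAAA) that begins 31 bases before the start. Its window is chr11:82101595-82101844, plus strand.
Ccl12: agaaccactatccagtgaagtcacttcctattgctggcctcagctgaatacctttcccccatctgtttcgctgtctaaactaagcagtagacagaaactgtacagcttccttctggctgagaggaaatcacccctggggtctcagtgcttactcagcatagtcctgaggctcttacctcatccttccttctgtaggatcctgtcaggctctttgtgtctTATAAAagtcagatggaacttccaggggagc
Ccl6 and Ccl9 are shown because the balance between these neighbours differed between cDC2-like cells and clusters 3 and 8. Their capitals mark bases in identical stretches of at least 8 bases that both windows hold, the longest of them 13 bases. In Ccl9 such stretches overlap, so its 19 capitals form an unbroken run that Ccl6 holds only in separate parts. The windows are chr11:83578637-83578886 for Ccl9 and chr11:83593088-83593337 for Ccl6, both on the minus strand.
Ccl9: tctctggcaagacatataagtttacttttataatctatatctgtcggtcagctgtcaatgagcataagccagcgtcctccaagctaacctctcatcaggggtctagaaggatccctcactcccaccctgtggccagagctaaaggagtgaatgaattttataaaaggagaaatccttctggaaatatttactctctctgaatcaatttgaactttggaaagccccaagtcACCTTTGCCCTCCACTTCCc
Ccl6: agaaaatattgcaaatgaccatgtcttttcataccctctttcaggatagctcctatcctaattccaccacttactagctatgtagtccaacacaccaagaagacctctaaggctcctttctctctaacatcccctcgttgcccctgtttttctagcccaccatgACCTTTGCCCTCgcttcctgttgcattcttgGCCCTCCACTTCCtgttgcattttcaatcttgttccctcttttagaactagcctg
The promoter table had an entry for 6 of the 8 members, and 4 motifs were searched on both strands in these 6 windows and in all 32851 windows of the same length. TATAAA was in the windows of Ccl12 and Ccl9 and in 12.4% of all windows. The AP-1 letters TGANTCA were in that of Ccl9, beginning 53 bases before the start, and in 6.75% of all windows. The NF-kB motif, searched in a form with fixed ends and a free pair of inner bases, was in that of Ccl9 on the opposite strand and in 1.41% of all windows. The core of the interferon-stimulated response element was in none of the 6 and in 2.98% of all windows. These matches describe letters only.

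Transcripts of the ligands lay mostly in clusters 3 and 8, except those of Ccl9 under KD. Under chow these clusters together held 27.4% of clustered cells and 37.4% of UMIs, but 92.1% of the UMIs of Ccl2, 90.3% of Ccl7, 89.0% of Ccl12, 85.9% of Ccl6 and 81.9% of Ccl9. Under KD the same clusters held 3.45% of cells and 4.43% of UMIs, and still 87.6% of Ccl7, 83.2% of Ccl12, 59.5% of Ccl2, 52.7% of Ccl6 and 41.4% of Ccl9. Cluster 5 held 42.6% of the KD Ccl9 UMIs. Ccr1 and Cx3cr1 were placed like the ligands, with 83.2% and 86.6% of their UMIs in these clusters under chow and 39.4% and 61.1% under KD. Ccr2 was spread more widely, with 54.6% of its UMIs there under chow and 8.93% under KD. Cluster 3 had the highest CPM of every member in both libraries, with the exception of Ccl6 and Ccl9 under KD, for which cluster 8 was highest; for Ccl9 the intervals of these clusters overlapped.

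**Figure D1:**
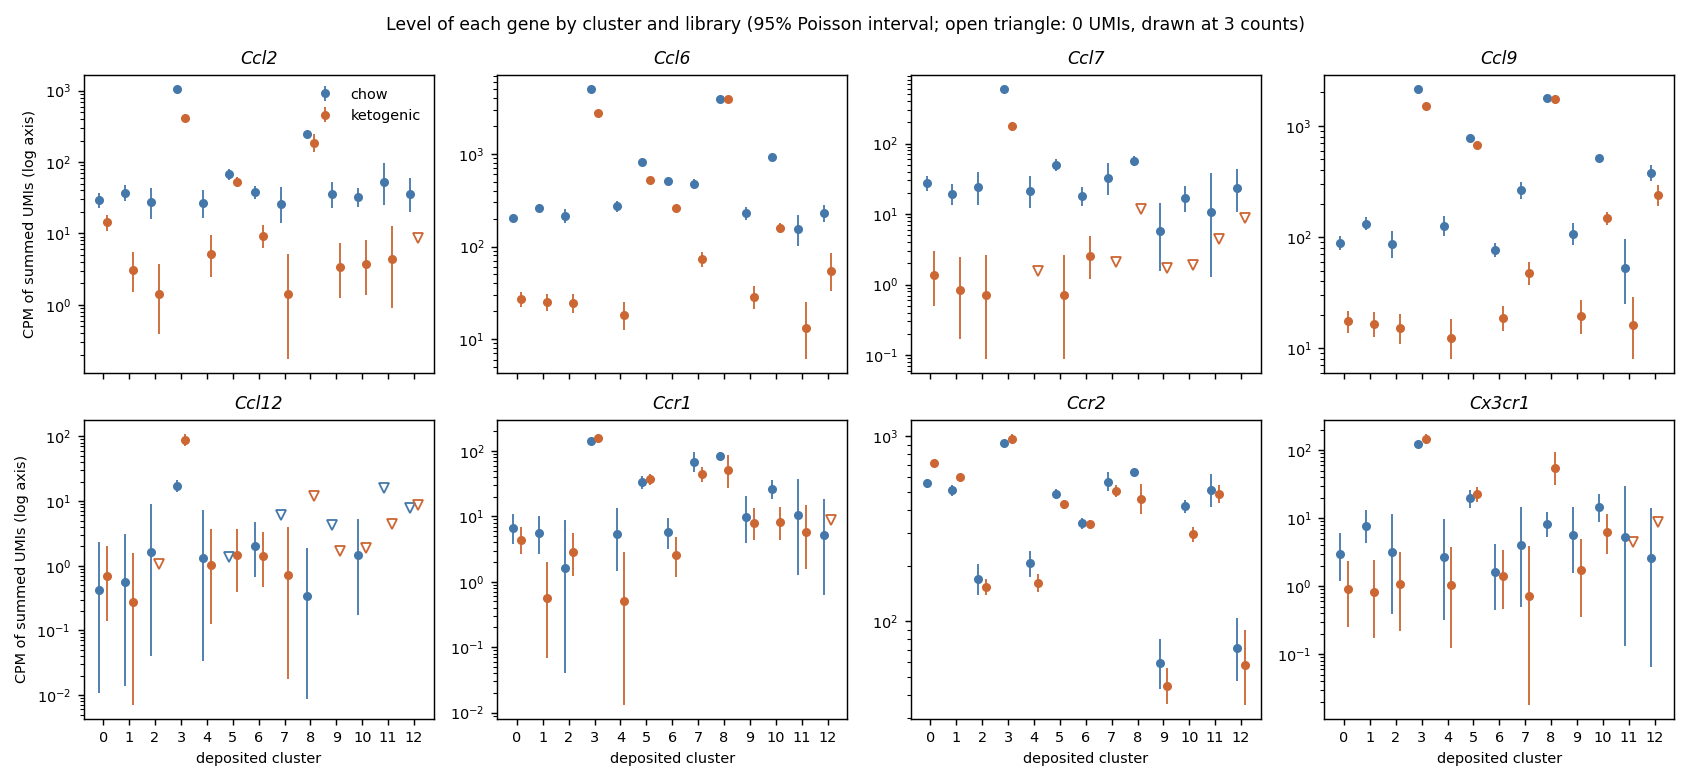
Level of each of the 8 genes in every deposited cluster (x axis) as CPM of summed UMIs (log y axis), chow in blue and KD in orange, with exact 95% Poisson intervals; an open triangle marks 0 UMIs, drawn at the level of 3 counts. Clusters 3 and 8 stand above the rest for Ccl2, Ccl6 and Ccl9 in both libraries, while Ccr2 lies between 488 and 718 CPM in lymphoid clusters 0, 1, 7 and 11 as well.

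Within cluster 3 the ligands of Ccr2 differed between the libraries in opposite directions. Ccl2 stood at 1058 CPM [1030–1087] under chow, from 5373 UMIs, and at 410 CPM [369–454] under KD, from 366 UMIs. The intervals do not overlap, and the KD level was 2.58-fold lower [2.32–2.88], a log2 ratio of -1.37. Ccl7, which attracts monocytes through the same receptor, stood at 590 CPM [569–611] and 175 CPM [148–204], from 2994 and 156 UMIs. Its intervals also lie apart, and the KD level was 3.37-fold lower [2.87–3.99]. The KD UMIs of Ccl7 came from 13 of 145 cells, with 33 of them in 1 cell.

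Ccl12, a mouse ligand of Ccr2, went the other way. It stood at 17.3 CPM [13.9–21.3] under chow, from 88 UMIs, and at 88.5 CPM [70.03–110] under KD, from 79 UMIs in a cluster with far fewer cells. The KD level was 5.11-fold higher [3.72–6.997], a log2 ratio of 2.35. These transcripts came from few cells: 35 of the 88 chow UMIs and 40 of the 79 KD UMIs were each in 1 cell. The log2 ratio was 1.28 without the 3 richest cells of each library, and 1.51 without cells that carried at least 2 UMIs of T, B or NK cell genes, both settings chosen after seeing the data.

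Ccl6 and Ccl9, which act through Ccr1, differed less. Ccl6 stood at 5077 CPM [5015–5140] under chow and 2793 CPM [2684–2904] under KD in cluster 3, a log2 ratio of -0.86. Ccl9 stood at 2149 CPM [2109–2190] and 1523 CPM [1443–1606], a log2 ratio of -0.50. Both were lower under KD by more than counting error and neither reached 2-fold.

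The receptors were at similar levels in cluster 3 of both libraries. Ccr2 stood at 922 CPM [896–949] under chow and 969 CPM [905–1035] under KD, and the interval of the ratio, 1.05 [0.976–1.13], includes 1. Ccr1 stood at 145 CPM [135–156] and 157 CPM [132–185], a ratio of 1.08 [0.896–1.30]. Cx3cr1 stood at 123 CPM [113–133] and 148 CPM [124–175], a ratio of 1.20 [0.991–1.46]. All 3 pairs of intervals overlap, and each interval of a ratio includes 1.

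Of the 8 members, 1 (Ccl12) was at least 2-fold higher under KD in cluster 3, beside 5.43% of the 8884 genes with at least 20 UMIs there, and 2 (Ccl2 and Ccl7) were at least 2-fold lower, beside 5.4%. The median log2 ratio of the members was -0.21 and that of all these genes 0.06. The plot of ratios by cluster shows these values beside those of the other clusters.

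**Figure D2:**
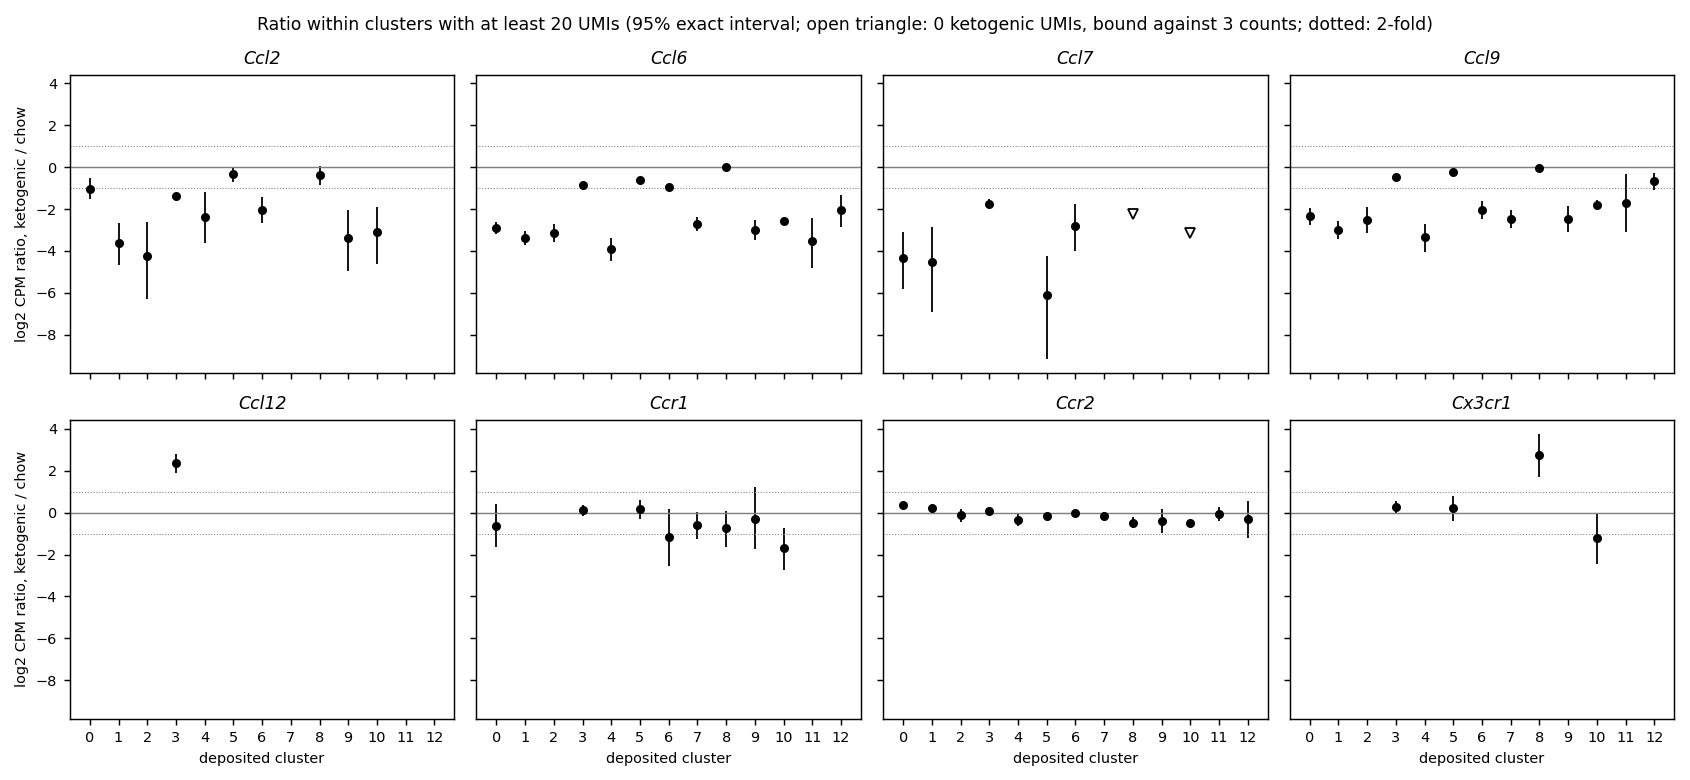
Log2 ratio of CPM, KD over chow (y axis), of each gene within each deposited cluster (x axis) where it had at least 20 UMIs over both libraries, with exact 95% intervals; dotted lines mark 2-fold, and an open triangle marks 0 KD UMIs, drawn at the bound against 3 counts. In cluster 3 Ccl12 lies at 2.35, Ccl2 at -1.37 and Ccl7 at -1.75, while Ccr2 stays between -0.50 and 0.37 in all 13 clusters.

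Other gene groups moved with the libraries in cluster 3. Of 16 interferon response genes, 12 were at least 2-fold higher under KD, with a median log2 ratio of 1.49 and a summed level of 651 CPM under chow and 1593 CPM under KD. Of 8 classical monocyte markers, 3 were higher (Ly6c2, Plac8 and Ms4a4c) and Fn1 was lower, and their summed level was 4303 and 5850 CPM. Of 11 macrophage markers at the minimum, 1 was higher and 4 were lower, with a median log2 ratio of -0.57. The summed level of the macrophage list was 5317 CPM under chow and 6477 CPM under KD, of which Apoe alone held 3064 and 4668 CPM. Neutrophil markers summed to 310 and 80.6 CPM, led by S100a8 with 793 and 9 UMIs and S100a9 with 512 and 1, while Csf3r stood at 37.0 and 45.9 CPM, Mmp8 at 8.66 and 22.4 CPM, and Ly6g was at 0 in both. NK markers summed to 108 and 263 CPM, with 4 of 6 at the minimum higher. Immediate early and dissociation genes, a sign of handling, summed to 13983 and 11157 CPM with a median of -0.30. Their part in the differences of Ccl2, Ccl7 and Ccl12 was not tested.

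The Ccl12 transcripts of the KD library were in cells with more interferon response transcripts. The 12 KD cells of cluster 3 with a Ccl12 UMI had a median of 2564 CPM of the summed interferon list, against 569 CPM in the 133 cells without one. Their median depth was 7133.5 UMIs, against 5499. Under chow no such gap was seen, with 363 CPM in 17 cells with a Ccl12 UMI and 379 CPM in 842 without. For Ccl2 the same medians were 387 and 375 CPM under chow and 695 and 556 CPM under KD.

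How evenly the cells of cluster 3 shared each transcript differed between genes. Under chow, 11 of 859 cells held at least 50% of the Ccl7 UMIs, 34 cells those of Ccl2 and 2 cells those of Ccl12, with 297, 231 and 35 UMIs in the richest cell. Ccl6 and Ccl9 were spread more evenly, with 194 and 192 cells holding that share, and Ccr2 needed 232 cells. Ccr1 needed 88 cells and Cx3cr1 100, each with at most 10 UMIs in 1 cell.

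The KD library gave the same order at the top, with 1 of 145 cells for Ccl12, 3 for Ccl7 and 7 for Ccl2, and 30 for Ccl6, 25 for Ccl9 and 34 for Ccr2. The log2 ratio of Ccl7 was -2.44 without the 3 richest cells of each library, a setting added after seeing the data. That of Ccl2 was then -1.63.

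**Figure D3:**
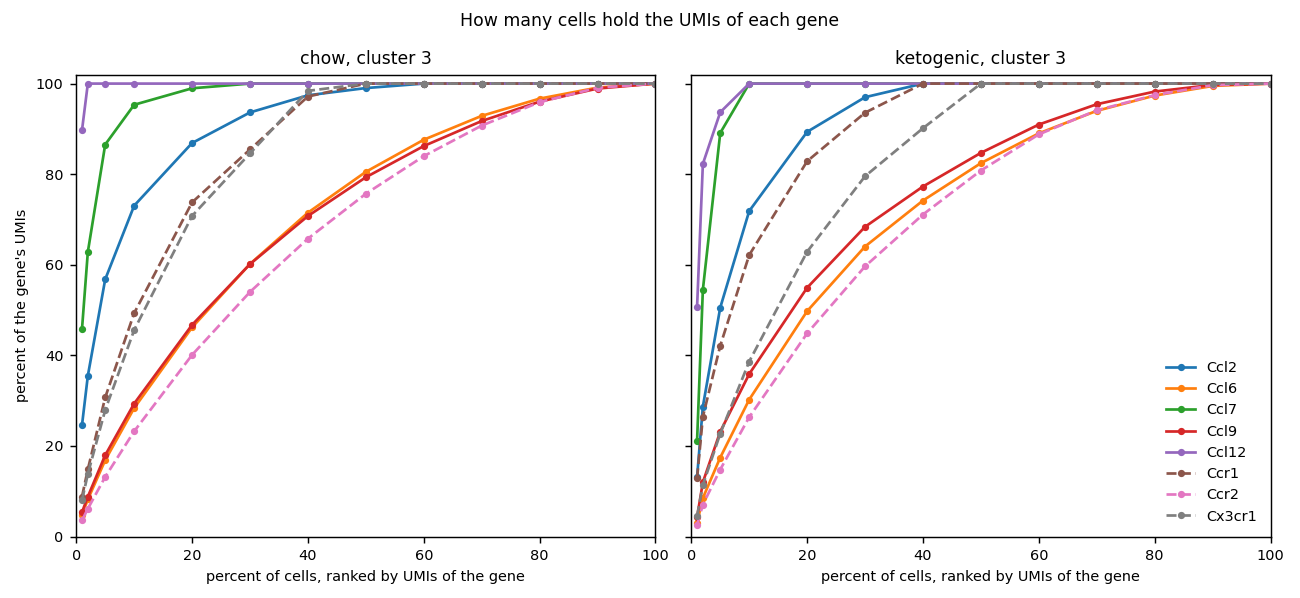
Cumulative percent of the UMIs of each gene (y axis) against the percent of cluster 3 cells ranked from the richest down (x axis), chow on the left (859 cells) and KD on the right (145 cells). Curves of Ccl12, Ccl7 and Ccl2 climb steeply in both libraries, and those of Ccl6, Ccl9 and Ccr2 climb slowly.

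The share of cluster 3 cells with a UMI was compared after each cell had been thinned to 1000 UMIs. Ccl2 was then found in 29.8% [26.8–33.0] of chow cells and 17.9% [12.1–25.2] of KD cells (56.2% and 37.9% before thinning). Ccl7 was found in 11.1% [9.04–13.3] and 5.52% [2.41–10.6], with overlapping intervals (23.6% and 8.97% before). Ccl12 was found in 0.931% [0.403–1.83] and 3.45% [1.13–7.86], also with overlapping intervals (1.98% and 8.28% before).

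Ccl6 and Ccl9 had a UMI in most cells of cluster 3. Before thinning the shares were 99.0% and 96.6% for Ccl6 and 97.9% and 92.4% for Ccl9. Thinned shares were 91.3% [89.2–93.1] and 78.6% [71.0–84.99] for Ccl6 and 79.0% [76.2–81.7] and 63.4% [55.1–71.3] for Ccl9. The intervals lie apart for both. Ccr2 was at 58.1% [54.7–61.4] and 56.6% [48.1–64.8], with overlapping intervals. As a background, T-like cells of cluster 2, with median depths of 2374 and 2993 UMIs, had thinned shares of 2.54% and 0.122% for Ccl2, 18.6% and 2.19% for Ccl6 and 8.05% and 1.46% for Ccl9.

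Ccl7 was found more often in cells with a Ccl2 UMI than in cells without one. In 1 thinned draw, 71 of 259 chow cells of cluster 3 with Ccl2 also had Ccl7 (27.4% [22.1–33.3]), against 23 of 600 without Ccl2 (3.83% [2.45–5.70]). Under KD the numbers were 7 of 23 (30.4% [13.2–52.9]) and 2 of 122 (1.64% [0.199–5.80]). The intervals lie apart in both libraries. Under chow, Ccr1 was found in 20.1% [15.4–25.5] of cells with Ccl2 and 8.33% [6.25–10.8] of those without. Cx3cr1 was found in 7.72% [4.78–11.7] and 12.8% [10.3–15.8], and Ccl6 in 93.1% and 92.0%, both with overlapping intervals. Under KD, Ccr1 was found in 17.4% [4.95–38.8] and 10.7% [5.80–17.5], also with overlapping intervals.

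The cells of cluster 3 were also divided by the complement genes C1qa, C1qb and C1qc, which mature tissue macrophages express. A division at a summed 1000 CPM per cell put 261 of 859 chow cells (30.4%) and 21 of 145 KD cells (14.5%) on the high side, so that the sides are ranges and not cell types. Within 2-fold of the division lay 39 chow cells below and 58 above it, and 8 and 4 KD cells. Under chow, Ccl2 stood at 1174 CPM [1138–1211] in C1q-low and 810 CPM [767–855] in C1q-high cells. Ccr1 was lower on the high side too, with 169 CPM [156–183] and 93.2 CPM [78.9–109]. Ccl6, with 4768 and 5738 CPM, and Ccl9, with 2025 and 2414 CPM, were higher on the high side, with intervals apart for both.

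Ccl7 (603 and 562 CPM), Ccr2 (907 and 954 CPM) and Cx3cr1 (120 and 128 CPM) had overlapping intervals on the C1q-low and C1q-high sides under chow. None of the 8 members was 2-fold apart between the sides under chow, beside 1.66% of 8545 genes at least 2-fold higher and 2.77% at least 2-fold lower in C1q-high cells. Under KD, 1 member (Ccl12) was at least 2-fold higher in C1q-high cells, beside 5.78% of 4293 genes, and none was 2-fold lower, beside 8.11%. The 27 Ccl12 UMIs of these 21 cells included 20 from 1 cell.

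The differences between libraries were present on both sides of the division. The Ccl2 level was 2.79-fold lower [2.49–3.14] under KD in C1q-low cells and 2.31-fold lower [1.74–3.14] in C1q-high cells. The Ccl7 level was 3.69-fold lower [3.08–4.46] and 2.38-fold lower [1.68–3.48]. The Ccl12 level was 3.41-fold higher [2.34–4.95] and 17.4-fold higher [9.23–33.5], the latter from 18 chow and 27 KD UMIs. On the C1q-low side 35 of 70 chow UMIs and 40 of 52 KD UMIs were each in 1 cell. The ratio on each side without its richest cells was not tested.

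In C1q-low cells 1 member was at least 2-fold higher under KD (4.8% of all genes tested) and 2 were lower (5.47%), and in C1q-high cells likewise 1 (11.0%) and 2 (9.84%). Of the receptor ratios, only that of Cx3cr1 in C1q-high cells had an interval without 1. It was 1.85 [1.24–2.68], from 207 chow and 33 KD UMIs. With the C1q-high side given the same weight of 23.8% in both libraries, the log2 ratios in cluster 3 were -1.42 for Ccl2, -1.70 for Ccl7 and 2.45 for Ccl12, an alternative added after seeing the data.

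**Figure D4:**
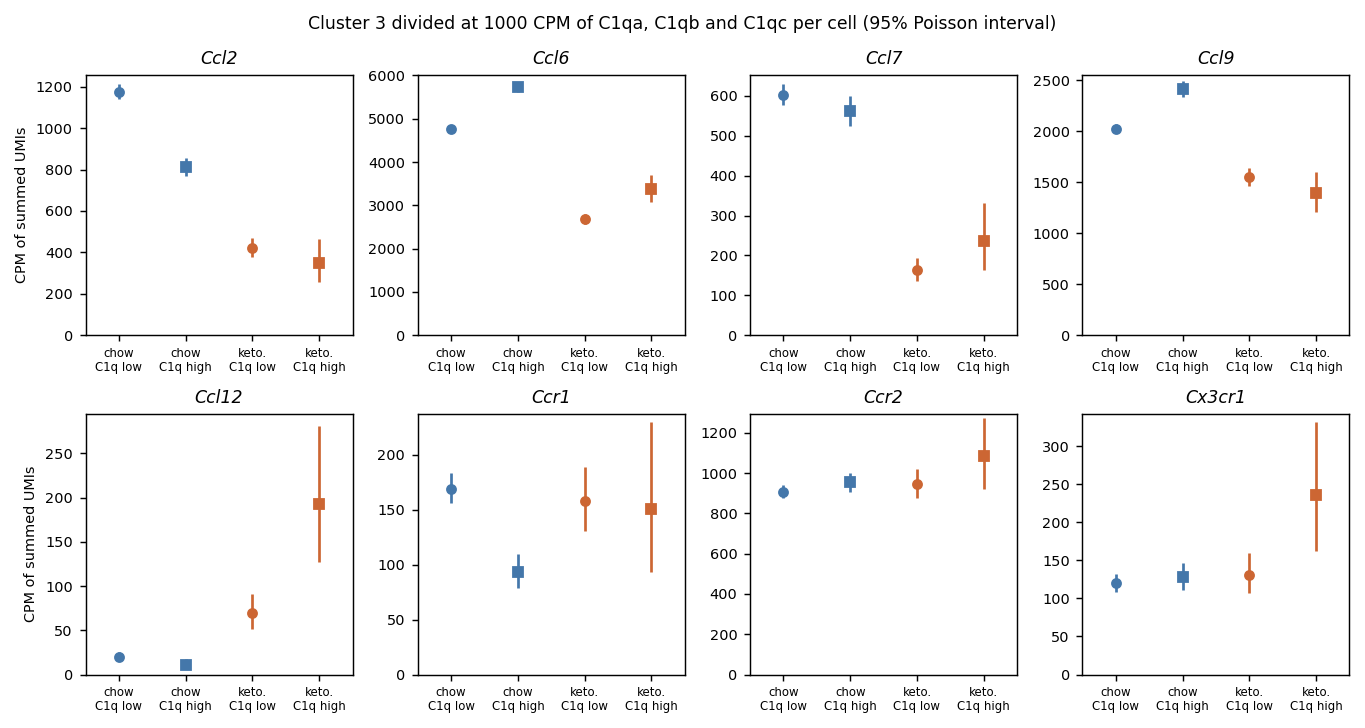
Level of each gene (y axis, CPM of summed UMIs, starting at 0) in C1q-low (circles) and C1q-high (squares) cells of cluster 3, chow in blue and KD in orange, with exact 95% Poisson intervals. Ccl2 and Ccl7 are lower in the KD library on both sides, and Ccl12 is higher on both.

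In cluster 8, Ccl2 stood at 244 CPM [227–263] under chow and 187 CPM [137–248] under KD, with overlapping intervals. The 47 KD UMIs came from 9 of 47 cells, 14 of them from 1 cell, and the log2 ratio of -0.37 was -1.23 as a mean over cells of CPM and -1.69 without the 3 richest cells of each library. Thinned shares of cells with Ccl2 were 13.5% [10.2–17.5] and 6.38% [1.34–17.5], with overlapping intervals (41.4% and 19.1% before), and the median depths were 7938.5 and 4581 UMIs. Ccl6 stood at 3944 and 3898 CPM and Ccl9 at 1799 and 1739 CPM, ratios of 0.988 [0.925–1.06] and 0.966 [0.875–1.07]. Ccl7 had 165 chow UMIs (56.7 CPM), 35 of them in 1 cell, and 0 KD UMIs, which allows up to 11.9 CPM at 3 counts. By the exact interval of the ratio, the KD level was at least 3.83-fold lower.

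Among the receptors in cluster 8, Ccr2 stood at 640 CPM [611–670] and 460 CPM [380–552], and Ccr1 at 84.8 CPM [74.6–96.1] and 51.6 CPM [27.5–88.2]. Cx3cr1 had 24 chow UMIs and 14 KD UMIs, or 8.24 and 55.6 CPM, but all 14 KD UMIs were in 1 cell, and its log2 ratio of 2.77 became -1.79 without the richest cell of each library. In this cluster 1 of 7 members at the minimum was at least 2-fold higher (4.65% of all genes tested) and 1 was lower (10.4%).

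cDC2-like cells also carried Ccl6 and Ccl9, above the level of lymphoid clusters. In cDC2-like cluster 5 (conventional dendritic cells type 2, with 344 chow and 358 KD cells), 3 of 7 cDC2 markers were raised, all among the 10 leading genes, beside 4 of 6 plasmacytoid DC markers, none of them leading. Ccl6 stood there at 812 CPM [775–851] and 528 CPM [501–556] and Ccl9 at 782 CPM [745–819] and 670 CPM [640–701]. Ccl2 stood at 67.1 and 52.5 CPM and Ccr2 at 487 and 429 CPM. Of 7 members at the minimum none was higher (4.24% of all genes) and 1 was lower (2.29%), Ccl7 with 110 and 2 UMIs, of which 47 chow UMIs were in 1 cell.

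In cDC1-like cluster 6, Ccl6 stood at 512 and 262 CPM, a log2 ratio of -0.96, while Ccl9 stood at only 77.1 and 18.7 CPM, inside its range of 52.7 to 132 and 12.4 to 19.4 CPM over 6 clusters led by lymphoid genes (0, 1, 2, 4, 9 and 11). Ccr2 was nearly the same in the libraries, with 340 and 335 CPM. Of 6 members at the minimum 4 were at least 2-fold lower (2.66% of all genes) and none was higher (3.02%). With 10% of the UMIs subtracted as free RNA, the log2 ratio of Ccl2 was -0.07. Those of Ccl7, Ccl9 and Ccr1 turned to 0.13, 3.29 and 1.59. The subtraction left no chow UMIs of Ccl9, so the size of its value rests on the small count added before each ratio was taken. For these 4 genes no direction is drawn here. In mature DC-like cluster 12, Ccl9 stood at 380 CPM [321–446] and 237 CPM [189–294] and Ccl6 at 229 CPM [184–281] and 54.9 CPM [33.1–85.8]. Over the same 6 lymphoid clusters Ccl6 ranged from 153 to 273 CPM under chow, which takes in the level of cluster 12, and from 13.2 to 28.5 CPM under KD, which lies below it. Treg-like cluster 7 was above cluster 12 in both libraries, at 474 and 72.8 CPM. Of 3 members at the minimum 1 was lower (4.34% of all genes) and none was higher (5.55%).

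Cycling cluster 10, with 142 chow and 154 KD cells, held a mixture of dividing cells. Ccl6 stood there at 933 and 158 CPM, Ccl9 at 513 and 148 CPM and Ccr2 at 420 and 296 CPM. Of 7 members at the minimum, 6 were at least 2-fold lower under KD, all but Ccr2, beside 5.38% of all genes, and none was higher, beside 6.63%. These ratios also hold any difference between the libraries in the mixture of dividing cells, which was not tested. At a minimum of 50 UMIs fewer members were tested and 3 were lower, and 5 were lower with 10% free RNA subtracted.

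The balance of the neighbouring genes Ccl6 and Ccl9 differed between cDC2-like cells and clusters 3 and 8. There were 2.36 Ccl6 UMIs per Ccl9 UMI [2.31–2.42] in cluster 3 under chow and 1.83 [1.72–1.96] under KD, and 2.19 and 2.24 in cluster 8. cDC2-like cells had 1.04 [0.972–1.11] and 0.788 [0.735–0.844]. cDC1-like cells had 6.64 [5.69–7.78] and 14.0 [10.9–18.4], and mature DC-like cells 0.601 [0.457–0.787] and 0.232 [0.133–0.385]. The cDC1-like values rest on Ccl9, and the chow value of mature DC-like cells on Ccl6, at levels inside the range of those 6 lymphoid clusters, and the KD value of mature DC-like cells rests on 19 Ccl6 UMIs, so how far these values describe the cells was not tested. Lymphoid clusters 0 and 1 had 2.27 and 1.98 under chow, where all clustered cells had 2.20, and 1.55 and 1.53 under KD, where all clustered cells had 1.52. The longest stretch of identical bases between the transcripts of Ccl6 and Ccl9 was 25 bases.

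**Figure D5:**
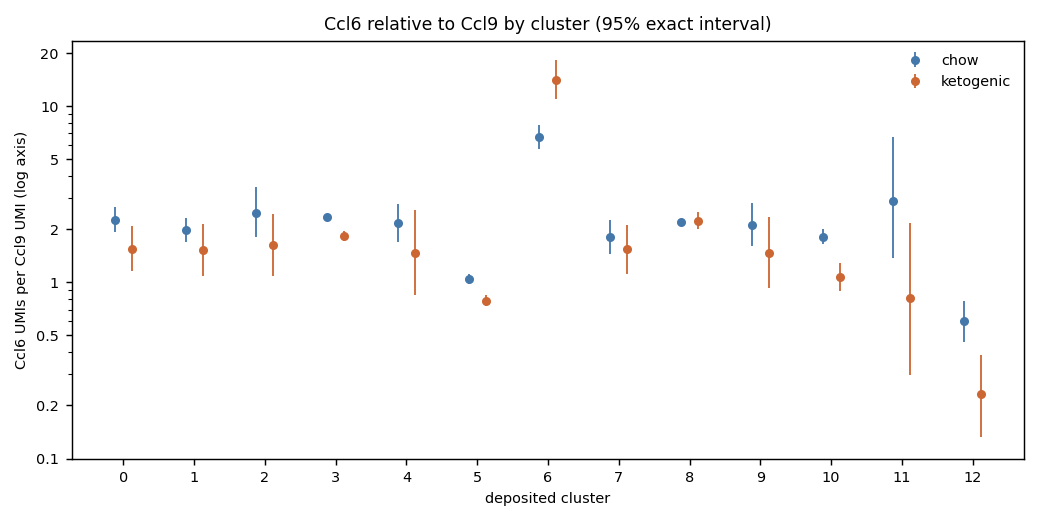
Ccl6 UMIs per Ccl9 UMI (log y axis) in each deposited cluster (x axis), chow in blue and KD in orange, with exact 95% intervals. cDC2-like cluster 5 lies below clusters 3 and 8 in both libraries; Ccl9 in cluster 6, and Ccl6 in chow cluster 12, lay inside the range of lymphoid clusters 0, 1, 2, 4, 9 and 11.

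Ccr2 was the member found across lymphoid cells. It stood at 557 CPM [527–588] under chow and 718 CPM [693–744] under KD in ILC2-like cluster 0 (group 2 innate lymphoid cells), where thinned shares of cells with a UMI were 40.5% and 48.2%. NK-like cluster 1 had 511 and 602 CPM, Treg-like cluster 7 (regulatory T cells) 568 and 505 CPM, and γδ T-like cluster 11 had 511 and 488 CPM. T-like cluster 2 was lower, with 169 and 154 CPM, and B and plasma-like cluster 9 had 59.5 and 45.0 CPM. The log2 ratio of Ccr2 was highest in cluster 0, at 0.37, and lowest in cycling cluster 10, at -0.50, so it passed 2-fold in none of the 13 clusters. The counts of Ccr2 are uncertain to the extent that its reads also match other genes, since how such reads were counted is not given in the sources used here.

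Ccr1 had a second place among lymphoid cells. It stood at 68.2 CPM [47.3–95.4] under chow and 44.5 CPM [34.2–57.0] under KD in Treg-like cells, which is 123% and 297% of its level over all clustered cells of each library. The 6 other clusters led by lymphoid genes (0, 1, 2, 4, 9 and 11) reached at most 19.0% and 53.1% of that level. Ccr1 and Ccr3 transcripts share a stretch of at most 47 identical bases.

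The ligands were found at low levels in lymphoid clusters, well under their level over all clustered cells of the library. In the same 6 clusters, Ccl6 was between 7.51% and 13.5% of its level over all clustered cells under chow and between 5.18% and 11.2% under KD. Ccl9 was between 5.70% and 14.3% and between 7.36% and 11.5%. Treg-like cluster 7 was higher, with 23.3% and 28.6% for Ccl6 (474 and 72.8 CPM) and 28.4% and 28.2% for Ccl9, and 71 of its 236 chow Ccl6 UMIs and 37 of its 103 KD Ccl6 UMIs were each in 1 cell. Ccl2 was between 8.58% and 17.0% under chow and between 5.35% and 53.0% under KD, where 47 of the 62 Ccl2 UMIs of ILC2-like cells were in 1 cell. These levels too were lower in the KD library, and Ccl6 in ILC2-like cells, for example, stood at 201 CPM under chow and 27.1 CPM under KD.

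Of 6 members at the minimum in ILC2-like cells, 4 were at least 2-fold lower (3.09% of all genes) and none was higher (2.85%). As an alternative, 10% of the UMIs of each cluster were subtracted as free RNA in the profile of its library. Log2 ratios in these cells turned from -1.03 to 5.79 for Ccl2, from -2.89 to 3.01 for Ccl6 and from -2.34 to 1.83 for Ccl9. The subtraction left no chow UMIs of these genes. The size of the turned values therefore rests on the small count added before each ratio was taken. In NK-like cluster 1 the same subtraction moved Ccl6 further down, from -3.38 to -8.73, and Ccl9 from -3.00 to -8.18. There it left no KD UMIs of Ccl6 or Ccl9, so the size of these values rests on the added count too. The value of Ccl2 in ILC2-like cells was -3.00 without the richest cell of each library. In the other lymphoid clusters members were likewise 2-fold lower or not past that fold, and none was higher. NK-like cluster 1 had 4 of 5 lower (2.9% of all genes lower and 2.53% higher), T-like cluster 2 had 3 of 4 (3.49% and 6.34%) and cluster 4 had 3 of 4 (3.42% and 4.1%). Treg-like cluster 7 had 2 of 4 lower (2.88% and 6.23%), B and plasma-like cluster 9 had 3 of 5 (2.0% and 21.4%) and γδ T-like cluster 11 had 2 of 3 (3.52% and 7.56%). The amount of free RNA in these libraries was not tested, and no direction in lymphoid cells is drawn for the ligands.

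Over all clustered cells, 6 of the 8 members were at least 2-fold lower under KD, beside 6.49% of 12678 genes, and none was higher, beside 7.02%. The levels were 23.8-fold lower [20.5–27.8] for Ccl7, 11.5-fold lower [10.7–12.5] for Ccl2, 7.98-fold lower [7.77–8.19] for Ccl6 and 5.50-fold lower [5.32–5.69] for Ccl9. Cx3cr1 was 3.79-fold lower [3.27–4.40] and Ccr1 3.69-fold lower [3.29–4.15]. Ccr2 stood at 561 and 425 CPM, a log2 ratio of -0.40, and Ccl12 at 4.68 and 3.67 CPM, a log2 ratio of -0.35.

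These sums also hold the difference in the number of cells of clusters 3 and 8. With each cluster given the same weight in both libraries, 2 members were at least 2-fold lower (1.62% of all genes) and 1 was higher (0.812%). The log2 ratios were then -2.13 for Ccl7, -1.33 for Ccl2, -0.87 for Ccl6, -0.60 for Ccl9, -0.19 for Ccr1, 0.09 for Ccr2, 0.16 for Cx3cr1 and 1.82 for Ccl12. The value for Ccl12 was 0.52 without its 3 richest cells in each library.

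Other chemokine genes also differed in cluster 3. Of 26 other ligands found in the matrices, 16 had at least 20 UMIs there, of which 4 were at least 2-fold higher under KD and 6 lower, with a median log2 ratio of -0.10. Ccl24, an eosinophil-attracting ligand of Ccr3, stood at 1371 and 82.9 CPM, which was 16.5-fold lower [13.2–21.1]. The neutrophil-attracting Cxcl2 stood at 5256 and 1826 CPM, 2.88-fold lower [2.74–3.03], and Cxcl1 at 240 and 67.2 CPM, 3.57-fold lower [2.75–4.70].

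Also lower were Cxcl3, with 266 and 7 UMIs, the platelet factor Pf4, with 583 and 30, and Ccl17, a ligand of Ccr4, with 141 and 1, of which 25.4% were in 1 cell. Ccl5, a ligand of Ccr1, stood at 296 and 597 CPM, 2.02-fold higher [1.83–2.23]. Cxcl16, the ligand of Cxcr6, was 2.20-fold higher [1.78–2.70], and Xcl1, a ligand made by NK and CD8 T cells, 2.65-fold higher [1.85–3.76]. Over all clustered cells Ccl5 stood at 1735 and 3329 CPM, 1.92-fold higher, and Xcl1 was 1.93-fold higher, while NK markers in cluster 3 stood at 108 and 263 CPM. The part of lymphocyte RNA in the cluster 3 values of Ccl5 and Xcl1 was not tested. Of 21 other receptors, 7 had at least 20 UMIs in cluster 3, of which 2 passed 2-fold upward with 0.5 added to each count and none downward. These were Cxcr3, with 41 and 18 UMIs and a ratio of 2.50 [1.35–4.44], and Ccr7, with 32 and 11 UMIs, whose ratio without the added count was 1.95 [0.889–3.98].

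The genes whose levels were most like those of a member over the 26 sums (13 clusters in 2 libraries) were found by Pearson correlation of log2(CPM + 10) among 9119 genes. Csf1r (0.95) and C1qb (0.94) were most like Ccl2, Lyz2 (0.98) and Cd14 (0.96) most like Ccl6, and Thbs1 (0.94) and Noct (0.90) most like Ccl7. Lrp1 (0.95) and Zeb2 (0.93) were most like Ccl9, Pros1 and Cd300ld (both 0.89) most like Ccr1, and Clec4a1 (0.95) and Sirpb1c (0.94) most like Cx3cr1. Next came Fgd4 (0.93) for Ccl2, Ear2 (0.93) for Ccl6, C5ar1 (0.89) for Ccl7, Zeb2os (0.92) for Ccl9, Adgre1 (0.89) for Ccr1 and Tlr2 (0.94) for Cx3cr1.

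Ccr2 was set apart in this measure, with Card19 (0.90), Fxyd5 (0.86) and Mrpl33 (0.85) most like it. Its correlations were 0.30 to 0.48 with Ccl2, Ccl6, Ccl7 and Ccl9, 0.46 with Cx3cr1 and 0.56 with Ccr1. Ccl12 fell short of the 200 UMIs required. The sums share libraries, depth and the few myeloid clusters, so these correlations describe the pattern only.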

How the data were processed

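Per the labels, CD45+ leukocytes of adipose tissue were profiled with a 10x Genomics protocol in 1 library per diet. The deposited values are UMI counts, whole numbers that the authors left without normalization. Cell Ranger, Seurat and the build mm10 are named in the submitters' processing notes, and their versions are not given in the sources used here. The deposited cluster table gives a cluster at resolution 0.5 for 10017 of 10159 cells; the 142 others all had over 5% mitochondrial UMIs.

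The members and the other lists were chosen with earlier results of these data known. Counts were summed per cluster and library, scaled to CPM, and compared as log2 ratios with 0.5 added to each count, for genes reaching 20 UMIs in the 2 libraries together. No test was possible, so a gene counted as different at 2-fold, beside the share of all genes past that fold. The rule named all 8 members, other chemokine genes of the fixed lists with at least 100 UMIs and a 2-fold difference in cluster 3, and the 3 genes most like each member; Ccr7 and Cxcr3 fall outside it and were named after their values were seen. Names of the form "X-like" required 3 or more markers of class X, with the 8 members left out, to be raised 2-fold on CPM + 20 over the remaining clustered cells, and 1 of them to be among the 10 leading genes of the cluster. The class with most markers among those 10 gave the name, joint names (T, from CD4 and CD8, and B and plasma) needed at least 5 raised markers of both lists, and cluster 4 stayed unnamed because NK receptor genes led it beside T cell genes; this rule was settled after seeing the data. Shares were expectations after thinning cells to 1000 UMIs, and every cell was deep enough.

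Scrublet (scanpy 1.11.5) marked 6 of 4545 chow and 2 of 5614 KD cells, too few for it to have worked as a doublet caller, so doublets were kept. The calculation was tested on simulated data. Python 3.11.15, numpy 2.4.6, scipy 1.17.1 and pandas 2.3.3 were used. UMIs are not corrected for transcript length, so levels are compared between cells and libraries and not between genes. Positions come from GENCODE M21. Alternatives changed the scaling, the minimum, the count added, the cells kept and the free RNA subtracted. Values of 1 other receptor gene are not reported here.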

Additional observations from a re-analysis of the deposited data

Results flagged for a closer look

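The 142 cells without a cluster, which no comparison above used, carried member transcripts. In the 87 chow cells there were 40 UMIs of Ccl2, 234 of Ccl6, 9 of Ccl7, 106 of Ccl9, 13 of Ccr1, 114 of Ccr2 and 6 of Cx3cr1. In the 55 KD cells there were 8 UMIs of Ccl6 and 48 of Ccr2. Each of these counts exceeds the 3 counts that a count of 0 would allow.

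The log2 ratio of Cx3cr1 between the libraries was 2.774 in cluster 8 and -1.18 in cluster 10, and the difference between these clusters was not tested. All 14 KD UMIs of Cx3cr1 in cluster 8 were in 1 cell.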

How the results depend on the processing

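In cluster 3 the counts of members 2-fold higher (1) and lower (2) kept their values under every alternative run, and the log2 ratio of Ccl12 ranged down to 1.28. Among 79 ratios of members in clusters, 1 added to each count and leaving out Scrublet calls moved none beyond counting error; median-of-ratios scaling moved 5, the mean over cells of CPM 10, cells with at least 3000 UMIs 14, and leaving out the richest cell moved 3 and turned 1. Leaving out the 3 richest cells moved 23 and turned 1, subtracting 10% free RNA moved 19 and turned 7, and leaving out cells with lymphoid UMIs moved 12 and turned 1. That scaling shifted the median of all genes by 0.49 in cluster 9 and 0.14 over all clustered cells.

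Among clusters 3, 8 and 10, whose counts of members were run under the alternatives, the counts of cluster 8, with 47 KD cells, were least stable. Its members 2-fold lower numbered 1, but 3 by the mean over cells, 3 without the richest cell, 4 without the 3 richest and 2 without cells with lymphoid UMIs. Its members higher numbered 1, but 0 at a minimum of 50 UMIs, 2 with no minimum, and 0 without the richest cell, the 3 richest or cells with lymphoid UMIs. There Cx3cr1 turned to -1.79, -1.31 and -1.47 under those last 3 settings, the second and last of them chosen after seeing the data. At a minimum of 50 UMIs, members lower in cluster 10 numbered 3 (of the 4 that reach it) instead of 6, other receptors higher in cluster 3 numbered 1 instead of 2, and other ligands higher over all clustered cells 0 instead of 1. With clusters weighted, 0 instead of 1 member was higher without the 3 richest cells.

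By C1q, 1 member (Ccl12) was lower on the high side under chow with the division at 500 CPM, and under KD 0 were higher at 500 CPM and 2 (Ccl12 and Cx3cr1) at 2000 CPM. With 10% free RNA subtracted, the log2 ratios of Ccl2, Ccl6 and Ccl9 in cluster 0 turned to 5.79, 3.01 and 1.83, that of Ccl2 in cluster 4 to 2.04, and those of Ccl7, Ccl9 and Ccr1 in cluster 6 to 0.13, 3.29 and 1.59. Except for Ccl7 and Ccr1 in cluster 6, the chow level was under 10% of that over all clustered cells. No chow UMIs of those genes were left, so the size of their values rests on the 0.5 added. The cause was not tested for Ccl7 and Ccr1.

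No paired analysis was possible because each diet had 1 library. Depth limits Ccl12 most, with 195 UMIs over both libraries.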

Other observations

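Receptors outside the 8 members differed over all clustered cells, where the libraries differ in their cell types. Cxcr3, carried by type 1 T cells and NK cells, stood at 34.7 CPM under chow and 104 CPM under KD, a log2 ratio of 1.59. Cxcr6, a receptor of tissue-resident lymphocytes, stood at 78.8 and 179 CPM, a log2 ratio of 1.19. Ccr8, a receptor of regulatory T cells and ILC2, stood at 10.2 and 23.3 CPM. Ccrl2, a receptor that holds chemerin at the cell surface, stood at 113 and 51.5 CPM, a log2 ratio of -1.13. Cx3cl1, the gene of fractalkine and thus the ligand of Cx3cr1, had only 26 UMIs under chow and 15 under KD. These genes were picked after their values were seen.

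Cxcl9, an interferon-gamma target, had 11 chow and 29 KD UMIs in cluster 3, with 40% of them in 1 cell.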
